A study of Mus musculus with 12 samples.

Results

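Haem synthesis was followed through 9 genes: the enzymes Alas1, Alad, Uros, Urod, Cpox, Ppox and Fech, and the mitochondrial iron importers Slc25a37 and Slc25a28. They were taken by symbol from the table of counts, which holds 18467 genes, and all 9 were present and passed the filter on low counts that left 12882 genes for testing. Alas2, the red cell form of the first enzyme, does not belong to this list and is given beside it. RNA was sequenced from 2 sorts of bone marrow macrophage: general macrophages, positive for CD11b and F4/80, and niche macrophages, positive for VCAM1, CD163 and CCR3. The sample titles use the word general for both sorts, so the sorting antigens decided the population. Each sort was made from healthy control mice (normal marrow) and from mice with bone metastases (metastatic marrow), with 3 libraries from different mice in each of the 4 groups. Metastases came from E0771, a mouse breast cancer line, injected into the caudal artery of female Albino B6 mice aged 8 weeks. The labels state no age for the controls, and no allele or transgene for any mouse. Red cells were lysed before sorting.

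Haem is built in a fixed order that starts and ends in the mitochondrion. Alas1, or Alas2 in red cell precursors, condenses glycine with succinyl-CoA in the rate-limiting step; Alad, Uros and Urod then take part in assembling and trimming the porphyrin ring in the cytosol; Cpox and Ppox oxidise it in the mitochondrion; and Fech inserts the iron. Slc25a37 (mitoferrin 1) and Slc25a28 (mitoferrin 2) carry that iron across the inner mitochondrial membrane, Slc25a37 being the form known from red cell precursors and Slc25a28 the widespread one. In the marrow, macrophages are better known for breaking haem down: they engulf nuclei and aged red cells at erythroblastic islands and recycle the iron through Hmox1 and Slc40a1.

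The upstream sequences of 2 genes that stood higher in niche libraries are shown: Cpox in all of them, and Alas2 in those of metastatic marrow. Both are RefSeq sequences of GRCm38.p6 on the + strand, 5′ to 3′. Capitals mark 4 words that GATA factors bind, on either strand: AGATAA, its variant AGATAG with a changed end, its variant TGATAA with a changed start, and TGATAG with both changes. They also mark CACCC, a word of Krüppel-like factors, on either strand. The Cpox stretch is chr16:58669958-58670207, the 250 bases before the RefSeq start. The Alas2 stretch is chrX:150547167-150547374 and stops where its first annotated exon begins.
Cpox: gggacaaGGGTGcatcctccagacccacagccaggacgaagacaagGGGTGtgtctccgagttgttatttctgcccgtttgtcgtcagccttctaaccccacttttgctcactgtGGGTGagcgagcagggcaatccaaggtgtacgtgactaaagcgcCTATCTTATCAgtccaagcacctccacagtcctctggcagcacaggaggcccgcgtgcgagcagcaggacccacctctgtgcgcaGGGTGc
Alas2: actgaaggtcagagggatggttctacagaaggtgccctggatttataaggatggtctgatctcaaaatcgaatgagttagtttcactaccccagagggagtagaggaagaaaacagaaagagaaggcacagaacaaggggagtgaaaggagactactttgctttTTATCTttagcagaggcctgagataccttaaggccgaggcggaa
In Cpox, CTATCT and TTATCA share a base and lie 91 and 86 bases before the start, and GGGTG, the reverse of CACCC, occurs 4 times. Alas2 holds TTATCT 86 bases before its RefSeq start, which lies inside the first annotated exon, and its 3 GGGTG matches lie in that exon, past the printed stretch. Of all 32851 RefSeq promoter windows of 250 bases, 26.5% hold at least 1 of the 4 GATA words and 52.0% hold CACCC. Promoter entries matched 7 of the 9 genes, in 10 windows, because some genes have several starts. Fech and Slc25a37 had no entry. Ppox, whose niche libraries also stood above the general ones in metastatic marrow, is not printed, and its window held none of these words. GATA words were found in 3 of the 10 windows (of Cpox, Uros and Slc25a28) and CACCC in 5 of 10 (of Cpox, Alas1, Alad and Slc25a28), shares near those of all windows. These matches describe letters, not bound sites.

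Totals were between 13687945 and 30332417 counts per library, so 3 counts, the floor used here, stood for 0.109 to 0.242 CPM, the unit of level used here (counts over the library's total, scaled by trimmed mean of M values). No defining macrophage marker was at or under the floor in all 3 libraries of a group, but their levels differed. Csf1r lay between 51.4 and 281 CPM in single libraries. Cd163, a sorting antigen, lay between 1.95 and 27.8 CPM in general against 295 and 937 CPM in niche libraries. In general macrophages of normal and metastatic marrow the medians were 0.768 and 0.540 CPM for Mertk, and 0.348 and 0.495 CPM for C1qa. Itgam averaged higher in the general than in the niche sort, at 754 against 413 CPM in normal marrow and 529 against 419 CPM in metastatic marrow. Genes of other marrow cells were also present: 14 neutrophil genes summed to between 10872 and 24863 CPM in each library, above the sum of the 10 macrophage markers (766 to 5611 CPM). In bulk RNA, fewer cells of a type and less RNA per cell cannot be told apart. Levels of many genes jumped between libraries of a group: 49.8% of tested genes, and 5 of the 9 haem synthesis genes, had at least 1 library at or under 3 counts and at least 1 with 100 counts or more.

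**Figure D1:**
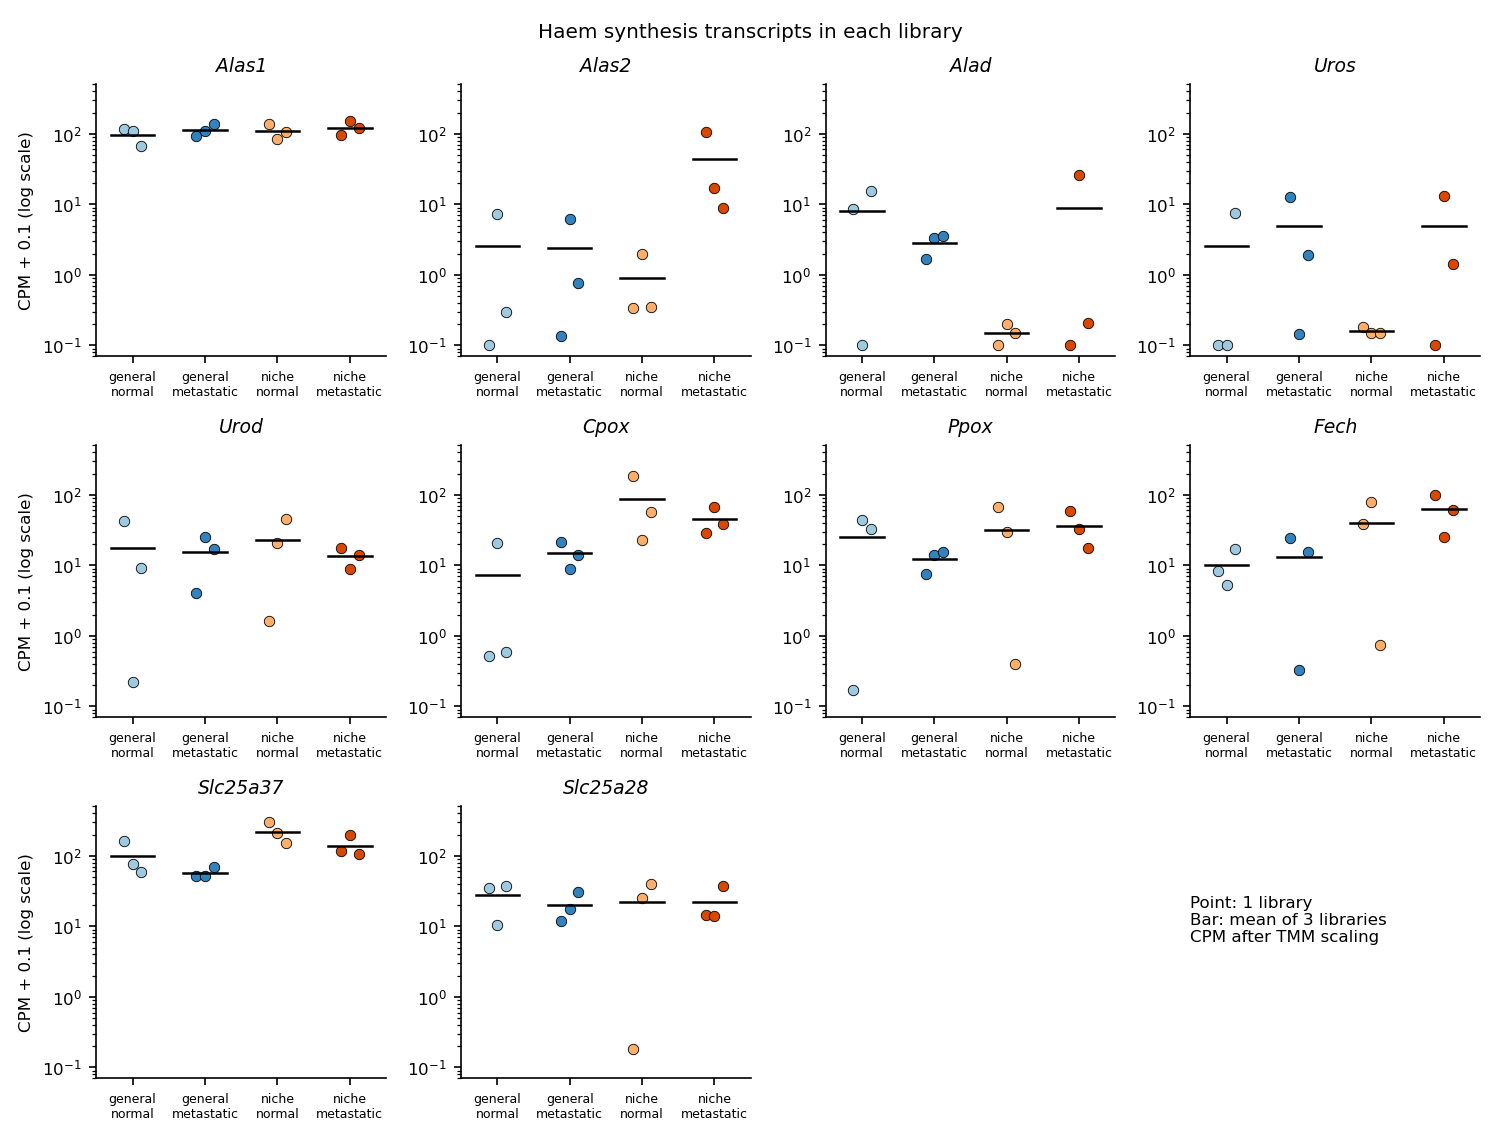
Level of each gene in each of the 12 libraries, as CPM + 0.1 on a log scale, with the mean of the 3 libraries of a group as a bar; a library with 0 counts sits at 0.1. Alas1 stays between 67.9 and 150 CPM in every library, all 6 niche libraries of Cpox and 3 of 6 of Slc25a37 sit above all 6 general ones, and every gene shown other than Alas1 and Slc25a37 drops under 1 CPM in at least 1 library.

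The entry step was the steadiest point of the pathway. Alas1 (chr9:106233455-106248654, GRCm38) measured 115, 109 and 67.9 CPM in general macrophages of normal marrow, 91.8, 109 and 136 CPM in general macrophages of metastatic marrow, 138, 84.1 and 105 CPM in niche macrophages of normal marrow, and 94.7, 150 and 122 CPM in niche macrophages of metastatic marrow. All 4 groups overlap, and the highest library was 2.20-fold above the lowest. The coefficient of variation over the 12 libraries was 21.6%, smaller than that of 97.2% of tested genes that averaged 10 CPM or more. Averaged over both marrow states, niche differed from general macrophages by 0.14 ± 0.27 (log2 fold change ± SE; 6 libraries each, edgeR quasi-likelihood test, adjusted p = 0.859), and averaged over both populations, metastatic differed from normal marrow by 0.18 ± 0.27 (adjusted p = 0.897). Its exons share 465 bases with an antisense gene, 4930500F10Rik, which is not among the rows used here, and the counting is not stated to use strand. The genes whose pattern over the 12 libraries lay closest to that of Alas1 were Eif5a, a translation factor, and Slc35a3, a nucleotide sugar transporter. Their root mean square differences were 0.27 and 0.28 on the mean-centred log2 CPM scale, against a median of 1.46 over 8128 genes. That scale is not adjusted for each gene's spread, so a steady gene tends to lie close to other steady genes.

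Alas2, the form that red cell precursors use, was at or under the floor in 3 of 12 libraries and reached the level of Alas1 in 1. It measured 0, 7.15 and 0.199 CPM in general macrophages of normal marrow, 0.0363, 6.17 and 0.656 CPM in general macrophages of metastatic marrow, 0.242, 1.88 and 0.250 CPM in niche macrophages of normal marrow, and 104, 16.7 and 8.91 CPM in niche macrophages of metastatic marrow. The 3 niche libraries of metastatic marrow were above the other 9. As a share of the counts of both genes, Alas2 made up 52.4% (exact 95% binomial interval 50.9 to 54.0%) in the first of these, 10.03% (9.10 to 11.03%) in the second and 6.81% (6.00 to 7.69%) in the third, and between 0% and 6.16% elsewhere. The intervals cover counting error only, because PCR copies of a molecule are counted again here. Metastatic against normal niche macrophages gave a log2 fold change of 5.76 ± 2.49 (3 libraries each), which did not pass edgeR's test (adjusted p = 0.381) and passed that of DESeq2 (adjusted p = 0.0197). The exons of Alas2 share 311 bases with Apex2 on the other strand, which held 1 to 865 counts.

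**Figure D2:**
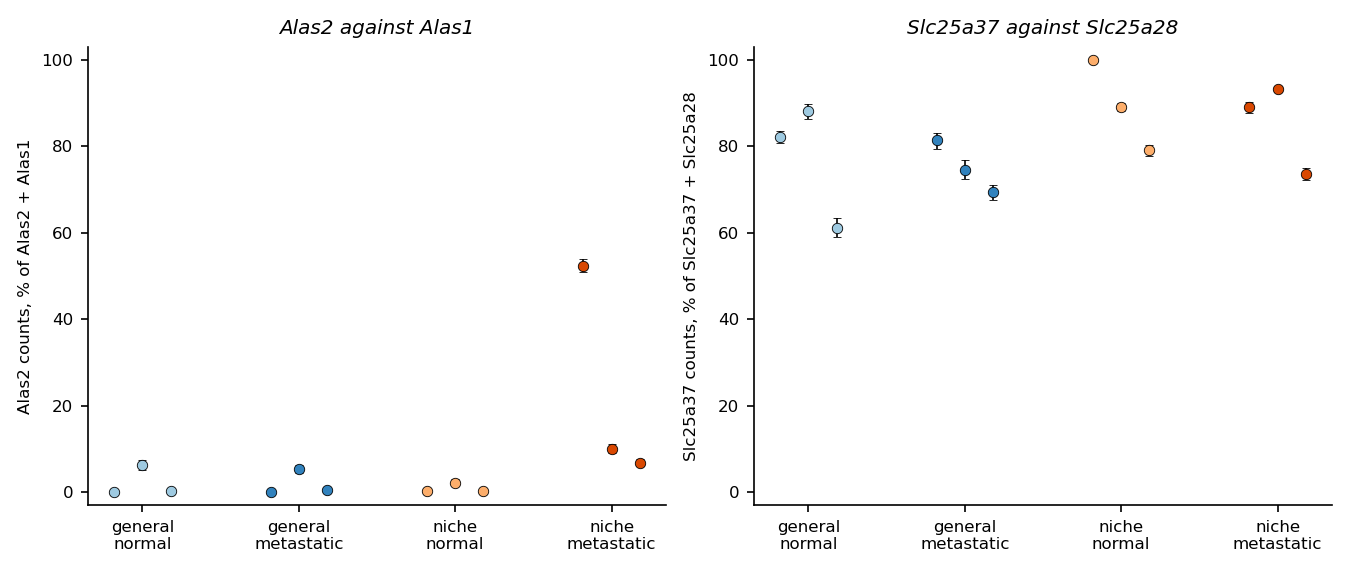
Share of counts, in percent, of Alas2 among Alas2 and Alas1 (left) and of Slc25a37 among Slc25a37 and Slc25a28 (right), for each of the 12 libraries, with exact 95% binomial intervals that cover counting error only. The 3 niche libraries of metastatic marrow lie above all others for Alas2 (6.81 to 52.4%), while the groups overlap for Slc25a37 (61.2 to 99.97%).

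The middle steps in the cytosol were measured unevenly. Alad (chr4:62509169-62519918), which joins 2 molecules of aminolaevulinic acid into porphobilinogen, had 8.55, 0 and 15.3 CPM in general macrophages of normal marrow and 1.60, 3.20 and 3.498 CPM in those of metastatic marrow. In niche macrophages it was at or under the floor in 5 of 6 libraries and at 26.0 CPM in the second library of metastatic marrow. Against the floor of 3 counts per library in niche macrophages of normal marrow, the mean of general macrophages of normal marrow was at least 44.0-fold higher, with 2 of its 3 libraries above the floor, and at least 23.7-fold without the third. That comparison did not pass edgeR's test (adjusted p = 0.261) and passed that of DESeq2 (adjusted p = 0.0301), as did metastatic against normal marrow in niche macrophages (edgeR adjusted p = 0.389, DESeq2 adjusted p = 0.0445), where the mean rests on that single library.

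Uros and Urod, which close the ring and trim its side chains, overlapped between the sorts in both marrow states. Uros (chr7:133686243-133710072) had 0, 0 and 7.41 CPM in general macrophages of normal marrow, 12.4, 0.0450 and 1.79 CPM in those of metastatic marrow, and 0, 13.1 and 1.33 CPM in niche macrophages of metastatic marrow. All 3 niche libraries of normal marrow held 1 count of Uros, under the floor. The mean of niche macrophages of metastatic marrow was therefore at least 26.7-fold higher than the floor of those of normal marrow, with 2 of 3 libraries above it, and at least 3.67-fold without the second of them (edgeR adjusted p = 0.435). Urod (chr4:116989965-116994413) had 42.9, 0.118 and 8.95 CPM in general macrophages of normal marrow, 3.96, 25.5 and 17.1 CPM in those of metastatic marrow, 1.54, 20.4 and 45.9 CPM in niche macrophages of normal marrow, and 17.8, 8.88 and 13.9 CPM in those of metastatic marrow. In both sorts its libraries of normal marrow covered a wider range than those of metastatic marrow, and every pair of groups overlapped.

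Of the last 3 enzymes, which work in the mitochondrion, Cpox stood higher in every niche library and Fech in 5 of 6, and none passed edgeR's test. Cpox (chr16:58670292-58717636), whose promoter is printed above, makes protoporphyrinogen. It measured 0.410, 20.7 and 0.497 CPM in general macrophages of normal marrow, 21.6, 8.82 and 14.1 CPM in those of metastatic marrow, 182, 23.1 and 57.8 CPM in niche macrophages of normal marrow, and 28.5, 67.1 and 38.3 CPM in those of metastatic marrow. All 6 niche libraries were above all 6 general libraries, a separation seen in this direction in 1.97% of tested genes. The averaged log2 fold change was 2.59 ± 0.87 (edgeR adjusted p = 0.0948), with 3.60 ± 1.28 in normal marrow (adjusted p = 0.177) and 1.59 ± 1.18 in metastatic marrow (adjusted p = 0.947). These values rested on single libraries. Without the second general library of normal marrow the averaged change was 4.57 (adjusted p = 0.00194) and that in normal marrow 7.57 (adjusted p = 0.00609). Without niche library A of normal marrow they were 2.04 (adjusted p = 0.229) and 2.50 (adjusted p = 0.362). DESeq2 on all libraries gave adjusted p-values of 0.00851 averaged and 0.0104 in normal marrow.

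Ppox (chr1:171275990-171281186), which makes protoporphyrin, measured 0.0684, 43.8 and 32.5 CPM in general macrophages of normal marrow, 7.52, 13.95 and 15.6 CPM in those of metastatic marrow, 66.6, 29.3 and 0.300 CPM in niche macrophages of normal marrow, and 57.9, 32.4 and 17.6 CPM in those of metastatic marrow. In metastatic marrow its 3 niche libraries were above its 3 general ones (log2 fold change 1.54 ± 1.51, edgeR adjusted p = 1.0; 1.01 without the first niche library), while in normal marrow each sort had 1 library under 1 CPM. Fech (chr18:64452914-64490251), which inserts the iron, measured 8.14, 5.08 and 16.9 CPM in general macrophages of normal marrow, 23.9, 0.225 and 15.3 CPM in those of metastatic marrow, 38.6, 78.1 and 0.650 CPM in niche macrophages of normal marrow, and 100.4, 25.4 and 61.0 CPM in those of metastatic marrow. Of its 6 niche libraries, 5 were above all 6 general ones, and the sixth, library C of normal marrow, was at 0.650 CPM. The averaged log2 fold change was 2.10 ± 0.97 (edgeR adjusted p = 0.259), with 1.96 ± 1.37 in normal and 2.24 ± 1.38 in metastatic marrow. The value of Fech in normal marrow was 0.96 without niche library B and 0.44 in limma-voom.

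Of the iron importers, Slc25a37 passed the test between the sorts and Slc25a28 did not; whether the 2 differ in this was not tested. Slc25a37 (chr14:69241848-69285112) measured 160, 76.9 and 59.1 CPM in general macrophages of normal marrow, 51.4, 51.7 and 68.3 CPM in those of metastatic marrow, 299, 210 and 150 CPM in niche macrophages of normal marrow, and 116, 194 and 104 CPM in those of metastatic marrow. In metastatic marrow the sorts did not overlap, and in normal marrow the first general library reached above the third niche library. Averaged over both marrow states, it was higher in niche macrophages by a log2 fold change of 1.22 ± 0.30 (6 libraries each, edgeR adjusted p = 0.0263), the only 1 of the 9 genes called in this comparison, against 4.21% of all tested genes called and 2.59% called higher. Within normal marrow the change was 1.16 ± 0.43 (adjusted p = 0.196) and within metastatic marrow 1.28 ± 0.43 (adjusted p = 0.364), neither of which passed. The averaged call was kept under every other scaling, filter and test tried, with log2 fold changes of 1.13 to 1.32 and adjusted p-values of 0.00341 to 0.0321. Leaving out 1 library lost it in 7 of 12 fits. The adjusted p was 0.0795, 0.0846 and 0.0583 without the first, the second and the third general library of metastatic marrow, 0.0854 and 0.0857 without the second and the third general library of normal marrow, 0.1004 without the second niche library of metastatic marrow, and 0.0600 without niche library A of normal marrow. In these 12 fits the log2 fold change stayed between 1.06 and 1.48.

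Slc25a28 (chr19:43663801-43674881) measured 34.7, 10.4 and 37.4 CPM in general macrophages of normal marrow, 11.7, 17.6 and 30.1 CPM in those of metastatic marrow, 0.0808, 25.4 and 39.6 CPM in niche macrophages of normal marrow, and 14.2, 13.8 and 37.4 CPM in those of metastatic marrow. Every pair of groups overlapped. Niche library A of normal marrow, which had the highest level of Slc25a37 of all 12 libraries (299 CPM, from 3705 counts), had 1 count of Slc25a28. Slc25a37 therefore made up 99.97% of the mitoferrin counts there, and between 61.2% and 93.4% in the other 11 libraries. Other genes overlap Slc25a37 on the other strand, Gm31748 with 0 to 117 counts and Gm27223 with 0 to 153 counts, fewer than the 1148 to 4468 counts of Slc25a37.

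**Figure D3:**
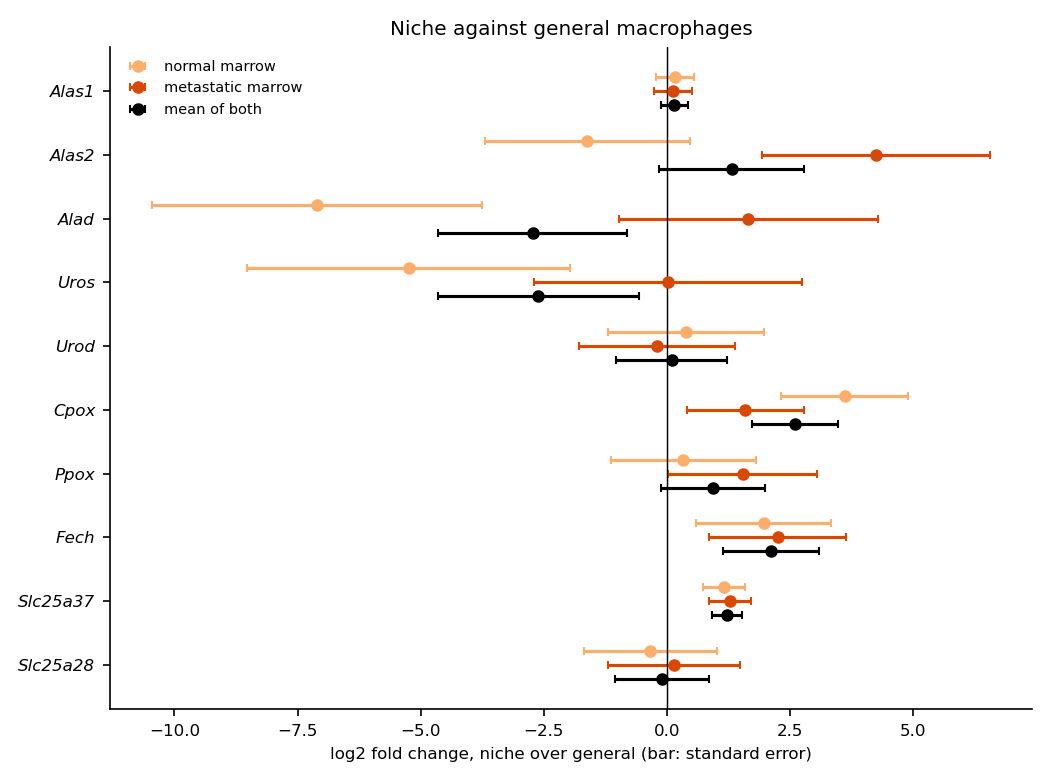
Log2 fold change of niche over general macrophages in normal marrow, in metastatic marrow and averaged over both, with its standard error as a bar; 3 libraries a group. Slc25a37, Cpox and Fech lie to the right of 0 in all 3 contrasts, and Alas1 lies at 0.14 ± 0.27 on average. For Alad and Uros all 3 niche libraries of normal marrow are under the floor, so their fitted values there are no bounds.

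Counted over the 9 genes, 0 passed edgeR's test between the sorts within normal marrow, where 2.47% of tested genes did, and 0 within metastatic marrow, where 0.831% did. At an unadjusted p under 0.05 there were 3 and 1 of the 9, against 19.0% and 8.6% of tested genes. DESeq2 called 2 (Alad and Cpox) and 0, against 14.2% and 3.73% of tested genes, and limma-voom called 0 and 0, against 1.44% and 1.38%. The median log2 fold change of the 9 genes was 0.33 in normal marrow, against 0.19 over all tested genes, and 1.28 in metastatic marrow, against 0.04. Niche libraries did not overlap with general ones, on the higher side, for 1 of the 9 genes in normal marrow (Cpox; 10% of tested genes) and for 4 in metastatic marrow (Cpox, Ppox, Fech and Slc25a37; 8.34% of tested genes). Scaling shifts such counts: with library totals in place of trimmed mean factors, the median over all tested genes moved from 0.04 to 0.29 in metastatic marrow and from 0.05 to 0.19 in the averaged comparison. The split of higher and lower calls went from 74 and 33 to 96 and 20 in metastatic marrow, and from 333 and 209 to 407 and 144 in the averaged comparison. Relative to that median, Slc25a37 was at 1.32 against 0.19.

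The genes also differed in level. Per kilobase of transcript, the mean over the 12 libraries was 32.4 CPM for Alas1 and 30.8 CPM for Slc25a37. It was 14.8 CPM for Slc25a28, 14.5 CPM for Ppox, 12.5 CPM for Cpox and 11.6 CPM for Urod. Fech, Alad and Uros were lowest, at 4.74, 3.90 and 1.72 CPM per kilobase, and the last 2 were at or under the floor in 6 and 7 of 12 libraries. Neighbours in this order overlapped in their ranges over the 12 libraries, and the order of means changed within groups. In general macrophages of normal marrow Cpox (2.33 CPM per kilobase) was under Alad (6.37). In niche macrophages of metastatic marrow Fech (9.48) was above Urod (9.07). The coefficients of variation of the 8 genes other than Alas1 were between 57.6% and 167%. Alas1 and Slc25a37 had the smallest root mean square difference of any pair on the centred log2 scale, at 0.76. Alad and Cpox had the largest, at 4.84. The scale is not adjusted for each gene's spread, so steady genes lie close together whether or not they change together. Of these genes only Alas1 and Slc25a37 had 100 counts or more in all 12 libraries, with highest over lowest levels of 2.20 and 5.83. Their averaged log2 fold changes between the sorts were 0.14 and 1.22. Shared regulation was not tested. The genes closest to Slc25a37 were Creb3l2 (0.38) and Hace1 (0.39), those closest to Cpox were Appl2 (0.90) and Lactb2 (0.94), and those closest to Fech were Rrp1b (0.89) and Icam1 (1.15). For Ppox they were Rpl9 (0.63) and Hdac1 (0.67), for Urod Tmub2 (0.95) and Agap2 (0.98), and for Slc25a28 H3c6 (0.50) and Otub1 (0.54). Alad lay closest to Gm16973 (1.45) and Trim16 (1.55), and Uros to Ctps (1.91) and Gm16973 (2.07).

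Between metastatic and normal marrow edgeR called 0 of the 9 genes, in general macrophages, in niche macrophages and averaged. Among all tested genes 0.0155% passed in general macrophages, 0.00776% in niche macrophages and 0.0543% when both were averaged. At an unadjusted p under 0.05 there were 0, 1 and 1 of the 9, against 5.12%, 12.7% and 10.5% of tested genes. DESeq2 called 0, 1 (Alad) and 0, against 1.09%, 7.41% and 4.59%, and limma-voom called 0 in each, against 0.179%, 0.0854% and 0.0854%. The log2 change of Slc25a37, metastatic over normal, was -0.79 ± 0.43 in general macrophages (edgeR adjusted p = 0.957), -0.67 ± 0.43 in niche macrophages (adjusted p = 0.522) and -0.73 ± 0.30 averaged (unadjusted p = 0.0258, adjusted p = 0.390). Single libraries moved these values: without the first general library of normal marrow they were -0.25 in general macrophages and -0.46 averaged, and without niche library A -0.39 in niche macrophages, where library totals gave -0.42. A test of whether metastasis acted differently on the 2 sorts passed for 0 of the 9 genes and 0 of all tested genes in edgeR, where 1016 genes (7.89%) had an unadjusted p under 0.05, while DESeq2 called 410 genes (3.18%) for it and limma-voom 0. Of the 9 genes, 1 had an unadjusted p under 0.05 there, and DESeq2 and limma-voom called 0. For Alas1, Urod, Cpox, Ppox, Fech and Slc25a28 the log2 change with metastasis was smaller than its standard error in both sorts, and no direction is read from it.

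**Figure D4:**
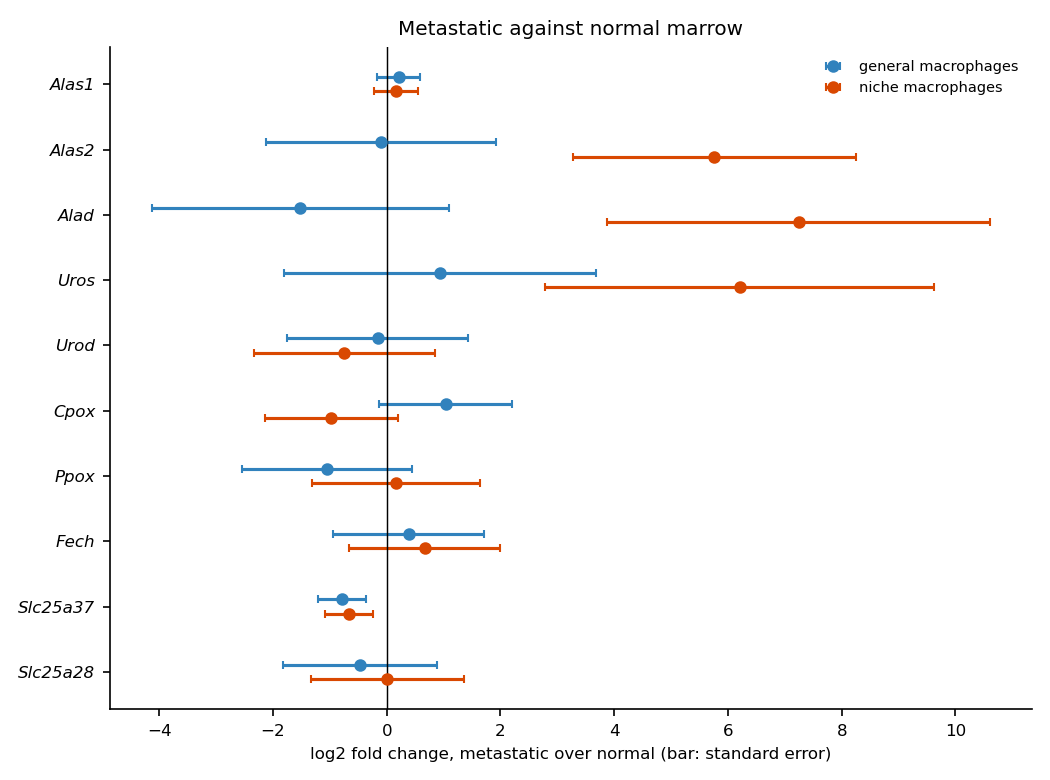
Log2 fold change of metastatic over normal marrow in general and in niche macrophages, with its standard error as a bar; 3 libraries a group. Slc25a37 lies at -0.79 and -0.67, Alas1 near 0 in both, and the widest bars belong to Alad, Uros and Alas2, which are at or under the floor in 6, 7 and 3 of 12 libraries.

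Genes that handle or sense haem were examined with a list of 32, of which 27 were tested. In normal marrow 1 was higher and 1 lower in niche macrophages, and averaged over both marrow states 2 were higher and 1 lower. Of all tested genes, 1.5% were called higher and 0.97% lower in normal marrow, and 2.59% and 1.62% averaged. DESeq2 called 8 of the 27 in normal marrow and 5 averaged, against 14.2% and 13% of tested genes, and limma-voom called 1 and 3, against 1.44% and 3.71%. In metastatic marrow edgeR called 0 (0.831% of tested genes), with 2 at an unadjusted p under 0.05 (8.6%), and DESeq2 and limma-voom each called 1, Tspo2 (3.73% and 1.38%). Bach1, a transcriptional repressor that haem inactivates, fell from 554 ± 44.4 CPM (SD, n = 3) in general to 225 ± 60.4 CPM in niche macrophages of normal marrow (log2 fold change -1.30 ± 0.26, edgeR adjusted p = 0.00863), whereas in metastatic marrow the change was -0.24 ± 0.26 (adjusted p = 1.0). Averaged, its change was -0.77 ± 0.18 (adjusted p = 0.0183), which did not pass with library totals only (adjusted p = 0.0530), nor without the first general library of metastatic marrow (0.0732), the second general library of normal marrow (0.0605) or the third niche library of metastatic marrow (0.0529). Slc48a1, which carries haem out of the lysosome, rose from 44.0 ± 10.8 to 219 ± 52.8 CPM in normal marrow (log2 fold change 2.32 ± 0.51, adjusted p = 0.0154) and averaged by 1.45 ± 0.35 (adjusted p = 0.0199), with 0.59 ± 0.48 in metastatic marrow (adjusted p = 1.0). The difference between the marrow states did not pass for either gene (adjusted p = 0.460 for Bach1 and 0.584 for Slc48a1). The call in normal marrow was lost in limma-voom (adjusted p = 0.0751) and without the first, the second or the third general library of normal marrow (0.104, 0.0520 and 0.0786). The averaged call was lost without the first or the third general library of metastatic marrow (0.0660 and 0.0690), the first or the third general library of normal marrow (0.0697 and 0.0580), or the first niche library of metastatic marrow (0.0827). Tspo2, a cholesterol carrier of red cell precursors, had 0 counts in all 6 general libraries and a mean of 5.49 and 14.7 CPM in niche macrophages of normal and metastatic marrow (averaged adjusted p = 0.0294). Its call was lost in 8 of 12 fits that left out 1 library (adjusted p 0.0506 to 0.0937): each of the 6 general libraries, and the first and the third niche library of metastatic marrow.

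Of 11 tested genes of mitochondrial iron-sulphur cluster assembly, the other main use of mitochondrial iron, 0 passed in edgeR in any of the 7 comparisons, where at most 4.21% of tested genes did, with at most 2 of them at an unadjusted p under 0.05 in a comparison, against 5.12% to 19.0% of tested genes. DESeq2 called 2 in normal marrow (Hscb and Iscu) and 1 averaged over both marrow states (Iscu) between the sorts, where it called 14.2% and 13% of tested genes, and limma-voom called 0. Of 13 iron-responsive genes, 3 were higher in niche macrophages of normal marrow and averaged, 2 in metastatic marrow, and 0 lower, against 1.5%, 2.59% and 0.574% of tested genes called higher in normal marrow, averaged and in metastatic marrow. Hmox1, which opens the haem ring, rose from 61.3 ± 13.3 to 1097 ± 266 CPM in normal marrow (log2 fold change 4.16 ± 0.33, adjusted p = 3.48e-07). Slc40a1, the iron exporter ferroportin, rose from 383 ± 48.5 to 2365 ± 455 CPM (2.63 ± 0.25, adjusted p = 3.38e-06). Tfrc, the transferrin receptor, rose by 1.61 ± 0.41 in normal marrow (adjusted p = 0.0439), a call lost in limma-voom (0.353; averaged, 0.0735), with the 6 libraries alone (0.135), with scaling without abundant gene classes (0.0577) and without each general library of normal marrow (0.205, 0.147 and 0.0599) or niche library C (0.140). In comparisons of metastatic with normal marrow edgeR called 0 genes of these 3 lists, with at most 4 of a list at an unadjusted p under 0.05 in a comparison (5.12% to 12.7% of tested genes). DESeq2 and limma-voom, which called 7.41% and 0.0854% of tested genes in niche macrophages, both called Hmox1 and Slc40a1 lower there in metastatic marrow (in edgeR -0.99 ± 0.29, adjusted p = 0.313, and -1.25 ± 0.24, adjusted p = 0.0825). In the same comparison DESeq2 called 3 of 10 defining macrophage markers (Adgre1, Ccr3 and Vcam1), limma-voom 1 and edgeR 0. The sum of these 10 markers was 4711 to 5611 CPM in niche macrophages of normal marrow and 2099 to 3917 CPM in those of metastatic marrow. The part of this fall in the changes of Hmox1 and Slc40a1 was not tested. DESeq2 alone called Slc25a39 higher in general macrophages (1.09% of tested genes called), and Slc25a39 and Tfrc higher and Slc40a1 lower when both were averaged (4.59%).

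Some red cell precursor genes were called higher in the same contrast as Slc25a37. Of 21 tested erythroid genes, a list that also holds Alas2 and Tspo2, 10 were higher in niche macrophages in the averaged comparison and 0 lower, against 2.59% of tested genes called higher. All 23 erythroid genes of the table other than Alas2, tested or not, summed to 53.6 to 152 CPM in general macrophages of normal marrow, 94.9 to 137 CPM in those of metastatic marrow, 1109 to 1683 CPM in niche macrophages of normal marrow and 893 to 2071 CPM in those of metastatic marrow. Slc4a1, the red cell anion exchanger, averaged 0.471 ± 0.128 CPM (SD, n = 3) in the general and 213 ± 115 CPM in the niche libraries of normal marrow. It and Hbb-bs, a beta globin, were the 2 called in the averaged comparison among 5 tested defining markers. Hba-a1, an alpha globin, in normal marrow averaged 5.64 CPM in the general sort against 0.435 CPM in the niche sort (log2 fold change -3.69 ± 1.80, edgeR adjusted p = 0.269), and 6.10 and 73.6 CPM in metastatic marrow (3.59 ± 1.77, adjusted p = 0.604). Hba-a2, a near-identical copy, was called higher in niche macrophages of normal marrow and averaged. How reads were divided between the 2 copies is not given in the sources used here and was not tested. Alas2 likewise had a niche over general log2 change of -1.62 ± 2.09 in normal marrow (adjusted p = 0.779) and 4.24 ± 2.31 in metastatic marrow (adjusted p = 0.672), the latter 2.48 without the first niche library and 6.94 without the second general library of metastatic marrow. Of the defining markers, Klf1 and Epor were at or under the floor in all 6 general libraries, and Klf1 also in all 3 niche libraries of metastatic marrow. In niche macrophages of normal marrow, Klf1, Epor and Gata1 were each at or under the floor in 2 of 3 libraries. Epor was so in 2 of 3 niche libraries of metastatic marrow as well. The first niche library of metastatic marrow had both the largest erythroid sum of all 12 libraries (2071 CPM) and the most Alas2 (104 CPM), while niche library A of normal marrow, with the second largest sum, had 0.242 CPM of Alas2, and the general library with the most Alas2 (7.15 CPM, the second of normal marrow) had the smallest sum of all (53.6 CPM). The first general library of normal marrow had the largest erythroid sum among general libraries (152 CPM) and the most Slc25a37 among them (160 CPM). Niche library A of normal marrow had the highest levels of Slc25a37 and Cpox, with an erythroid sum of 1683 CPM, and the order of these sums and of Slc25a37 differed among the niche libraries of metastatic marrow. Of other cell types, 8 of 10 tested B and plasma cell genes were higher in niche macrophages in the averaged comparison, 10 of 14 neutrophil and 6 of 10 monocyte genes were lower, and 0 of 7 eosinophil, 0 of 2 megakaryocyte and 0 of 6 T and NK cell genes passed in edgeR. Over all tested genes 2.59% were called higher and 1.62% lower there. Of the last 3 lists, 3, 0 and 0 genes had an unadjusted p under 0.05 (18.2% of tested genes), DESeq2 called 3, 0 and 0 (13%), and limma-voom called 2, 0 and 0 (3.71%). The part of these cells in the levels of the haem synthesis genes was not tested.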

How the data were processed

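RNA from 12 libraries of sorted mouse bone marrow macrophages was depleted of ribosomal RNA and sequenced, per the labels' protocols. Values are expected counts per gene symbol in a single table deposited by the authors, and 73.9% of them were whole numbers. The submitters' processing notes name mm10, STAR 2.7.3a, Partek, R 4.3.1 and DESeq2 1.40.2, without a role for each, and the counting program, annotation and strandedness are not given in the sources used here. Columns of niche macrophages from normal marrow carry other replicate numbers than the titles and are called A, B and C. Counts were rounded, filtered with filterByExpr and tested in edgeR 4.0.16 (R 4.3.3): trimmed mean of M values factors, 4 group means, quasi-likelihood F-tests, Benjamini-Hochberg adjustment over 12882 genes, called under 0.05. Standard errors were computed from F. The spread was large (common biological coefficient of variation 1.30). The procedure was tested on simulated data. Alternatives were other scalings, filters and dispersion, DESeq2 1.42.0, limma-voom (limma 3.58.1), fewer libraries and a replicate block. GENCODE M21 (GRCm38) gave positions, lengths and overlaps, and RefSeq the promoters. The named genes were the 9 genes, Alas2, up to 4 called genes of each pathway list, the defining markers and the 2 genes of most similar pattern; 1 item of that rule is not reported here. The genes and lists were chosen with earlier results of these data known.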

Additional observations from a re-analysis of the deposited data

How the results depend on the processing

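For the log2 fold changes of the 9 genes that exceeded their standard error, and for Alas1 averaged, 421 of 438 refits kept the direction and the side of the threshold. Only 1 of these changes, that of Slc25a37 averaged over both marrow states, was called. For the others, keeping the side meant staying uncalled, so the total says little about how firm they are. The Slc25a37 call was lost in 7 of 12 fits that left out 1 library. Levels on library totals stayed within 1 SD for all 9 genes. Leaving out 1 library reversed 4 values, none of them called: Alad, metastatic over normal averaged, to -0.70 without the second niche library of metastatic marrow (range -0.70 to 3.30), and Uros, without the third general library of normal marrow, to 3.46 (niche over general in normal marrow; range -5.83 to 3.46), 1.74 (averaged; -4.04 to 1.74) and -3.45 (difference of the metastasis effect; -3.45 to 7.62). Numbers of called genes over the whole table moved by over 1.5 times as follows, and the cause was not tested. For niche against general macrophages in normal marrow (318), DESeq2 gave 1825, limma-voom 186 and the 6 libraries alone 163; in metastatic marrow (107), DESeq2 gave 480 and limma-voom 178; averaged (542), DESeq2 gave 1670. For metastatic against normal marrow in general macrophages (2), library totals gave 0, no filter 5, DESeq2 141 and limma-voom 23. In niche macrophages (1), RLE factors, library totals and the 6 libraries alone each gave 0, scaling without abundant gene classes 2, no filter and the filter of 10 counts 3 each, robust dispersion 4, DESeq2 954 and limma-voom 11. Averaged (7), library totals and scaling without abundant gene classes gave 4 each, no filter 12, robust dispersion 13, DESeq2 591 and limma-voom 11. For the difference of the metastasis effect (0), DESeq2 gave 410. Leaving out 1 library gave 176 to 402, 66 to 83 and 331 to 640 calls for niche against general macrophages in normal marrow, in metastatic marrow and averaged. It gave 0 to 0, 0 to 66 and 5 to 48 for metastatic against normal marrow in general macrophages, in niche macrophages and averaged, and 0 to 16 for the difference, the most each time without niche library B of normal marrow wherever that library took part.

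Whether replicate numbers pair the libraries could not be settled. Deviations from the group mean were correlated between general and niche macrophages of metastatic marrow. Same-numbered libraries gave 0.004 to 0.032 and different-numbered ones -0.033 to 0.006. Between general macrophages of metastatic and normal marrow, which came from different mice, these ranges were -0.007 to 0.020 and -0.033 to 0.014. Correlations this close to 0 cannot exclude shared mice. With the replicate block, the 6 libraries of metastatic marrow gave 119 calls (97 without it) and the 6 general libraries 3 (3 without it), and none of the 9 genes was called. No replicate block was used where niche macrophages of normal marrow entered, because their titles and columns give different numbers. At or under the floor of 3 counts, as Alad and Uros were in 6 and 7 of 12 libraries, a level cannot be told from 0 at this depth.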
